A study of Mus musculus with 16 samples.

Results

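Respiratory complex I is encoded by 2 genomes, and the transcripts described here are its protein-coding genes, chosen by symbol: nuclear genes whose names begin Ndufa, Ndufb, Ndufc, Ndufs or Ndufv followed by a digit, and mitochondrial genes whose names begin mt-Nd. The rule took 44 genes, 37 nuclear and 7 mitochondrial, of 21397 protein-coding and 29806 annotated gene entries in all. Of these, 43 had enough reads to be tested. Ndufa4l2 had no read outside control HSC replicate 3, which held 5, and was not tested. Ndufa4 and Ndufa4l2 match the rule by name, but the Ndufa4 protein is a subunit of cytochrome c oxidase (complex IV) and Ndufa4l2 is its relative, so they are described apart. Another 4 genes with such names, Ndufb1-ps, Ndufb4c, Ndufa11b and Ndufs6b, are not annotated as protein coding and were left out.

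Complex I sits in the inner mitochondrial membrane, takes electrons from NADH, passes them along iron-sulfur clusters to ubiquinone and pumps protons. Its catalytic core consists of nuclear-encoded subunits in a matrix arm and mitochondrially encoded subunits in a membrane arm, and nuclear-encoded accessory subunits surround both arms. The mitochondrial genes are transcribed as long polycistronic RNAs that are then processed, while each nuclear gene has its own promoter. Quiescent haematopoietic stem cells are known for a low reliance on respiration, and respiration increases as progenitors form.

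RNA sequencing covered 16 libraries from mouse bone marrow in 4 groups of 4. HSC are haematopoietic stem cells, and MPP3 are myeloid-biased multipotent progenitors, here the fraction lacking Fcgr, the receptors that mark later myeloid progenitors. Control mice are labelled WT, and the mutant mice carry Jak2V617F, an activating change in the cytokine-receptor kinase JAK2 that is found in myeloproliferative neoplasms. The labels used here name no promoter or Cre that drives the allele, no allele dose, no age and no sex. They number the replicates 1 to 4 and call that number the batch, without saying whether different animals gave them. A p-value here therefore reflects only how these libraries vary, which may be technical.

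Estimated counts on gene entries summed to between 33108537 and 41230956 per library. Each tested member had at least 646 reads in every library. In control HSC the 9 HSC markers summed to 1985 to 2271 CPM (counts-per-million on TMM-scaled library totals) per library and in control MPP3 to 1128 to 1578 CPM, while the 8 MPP3 markers summed to 1815 to 2215 CPM and 5217 to 7616 CPM (Kit is in both lists). Jak2V617F HSC replicates 1 and 4 resembled each other more than any other pair within a group (r = 0.971 across genes in log2 CPM, against 0.934 to 0.958). They differed by more than sampling noise, with a chi-square of 48.7 per degree of freedom, and were kept as 2 libraries. Counts, sums and calls that rest on Jak2V617F HSC are also given without them.

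Reference sequences show why some members cannot be counted cleanly. mt-Nd4l (chrM:9877-10173) and mt-Nd4 (chrM:10167-11544) lie on the plus strand and share 7 bases, the end of the former and the start of the latter. mt-Nd5 (chrM:11742-13565, plus strand) and mt-Nd6 (chrM:13552-14070, minus strand) share 14 bases on opposite strands. Shared bases are in capitals below, on GRCm38 coordinates with GENCODE M21 transcript sequences, 5′ to 3′ on the strand of each gene.
mt-Nd4l, last 30 bases, chrM:10144-10173: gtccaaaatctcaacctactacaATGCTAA
mt-Nd4, its opening 30 bases, chrM:10167-10196: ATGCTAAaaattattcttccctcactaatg
mt-Nd5, last 30 bases, chrM:13536-13565: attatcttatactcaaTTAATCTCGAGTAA
mt-Nd6, last 30 bases, chrM:13552-13581: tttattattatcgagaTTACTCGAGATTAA

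Whether the libraries kept strand is not stated in the sources used here. Without strand, reads from mt-Nd6 and from RNA of the opposite strand at the same place cannot be told apart. mt-Nd3 has a copy in the nuclear genome, Gm28438 on chromosome 1, which differs from it at 1 of 345 bases (T3C, counted from the start of mt-Nd3, in capitals below).
mt-Nd3, chrM:9459-9476: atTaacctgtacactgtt
Gm28438, same window: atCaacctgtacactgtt
The copy was assigned 7.19 to 13.4 CPM as group means (per plain library total, as are the other values on copies) against 24.6 to 30.8 CPM for mt-Nd3, so the mt-Nd3 values are uncertain. On the same chromosome, Gm28439 is identical to mt-Nd4 over 876 bases and Gm10222 to mt-Nd4l over 294 bases. Both of these copies were assigned 0 CPM as the mean of every group. Among nuclear members, the pseudogene Ndufb4c is identical to Ndufb4 over 390 bases and was assigned 47.8 to 60.1 CPM against 44.5 to 51.6 CPM for Ndufb4, so the values of Ndufb4 are uncertain too. Ndufb5 shares 530 bases with Mrpl47 and Ndufa13 shares 375 with Tssk6, which were assigned 20.0 to 29.5 and 2.26 to 3.00 CPM. Adding the reads of pseudogene copies to their members changed no count of calls. It moved the mitochondrial median log2 fold change from 0.18 to 0.32 for the difference of mutant effects (below). For MPP3 against HSC in control mice it moved that median from 0.07 to 0.003.

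Promoter entries of 300 bases (250 before the start site and 50 from it on, RefSeq, GRCm38.p6) were found for 32 of the 37 nuclear members. They were searched on both strands for core motifs of 3 factors known to act on genes of respiration: NRF1 (GCGCANGCG), the ETS family that includes GABP (CCGGAAG) and YY1 (AAGATGGC). An ETS match can share its last letters, AAG, with a YY1 match, and a match is only a description of letters. NRF1 letters stood in 8 of 32 promoters (25.0%, against 7.03% of the 27025 genes in the table), ETS letters in 4 (12.5%, against 9.93%) and YY1 letters in 7 (21.9%, against 3.19%). All 7 YY1 matches read as written on the strand of the gene and began 23 to 39 bases after the start site. The YY1 letters hold ATG, and where translation starts was not examined. Among all genes with YY1 letters, 42.2% had a match in the bases after the start site. Of the 10 nuclear members that rose in Jak2V617F HSC (below), 7 had an entry, and 4 of these held a motif. Their last 100 bases are printed with the motif in capitals, YY1 in Ndufa3, Ndufa9 and Ndufc1 and ETS in Ndufb7.
Ndufa3, chr7:3617323-3617422, plus strand: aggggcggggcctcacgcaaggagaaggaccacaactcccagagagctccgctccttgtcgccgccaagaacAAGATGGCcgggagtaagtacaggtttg
Ndufa9, chr6:126849095-126849194, minus strand: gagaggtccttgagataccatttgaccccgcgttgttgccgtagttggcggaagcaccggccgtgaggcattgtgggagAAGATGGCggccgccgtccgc
Ndufc1, chr3:51408906-51409005, minus strand: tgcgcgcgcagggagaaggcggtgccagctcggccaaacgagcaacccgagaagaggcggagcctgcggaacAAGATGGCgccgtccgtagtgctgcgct
Ndufb7, chr8:83566708-83566807, plus strand: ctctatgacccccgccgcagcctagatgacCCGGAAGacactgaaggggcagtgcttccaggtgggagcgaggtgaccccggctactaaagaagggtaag
YY1 letters also stood in Ndufb8, Ndufs4, Ndufs6 and Ndufs7, which did not pass the test, so these letters stood in members of both kinds. Any of the 3 motifs stood in 4 of 7 members that rose and in 14 of 25 that did not (57.1% and 56.0%, against 17.8% of all genes), and NRF1 letters in 0 of 7 and 8 of 25.

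Levels between genes were compared per length, as transcripts-per-million (TPM). In control HSC the highest level belonged to mt-Nd1 (1425 ± 129 TPM, SD, n = 4), which sits where the 2 arms meet, followed by mt-Nd4 (959 ± 103 TPM). The next was Ndufa4, the complex IV subunit, at 714 ± 25.0 TPM, and mt-Nd5 (563 ± 82.3 TPM) and Ndufb8 (560.0 ± 29.96 TPM) did not differ beyond their spread. Ndufb8, whose protein is widely used as a marker of assembled complex I, led the nuclear subunits, while Ndufs1, the largest iron-sulfur subunit, and Ndufa11 were the lowest tested members at 53.0 ± 11.4 and 30.9 ± 2.53 TPM. In CPM Ndufa11 was not the lowest, at 69.8 CPM in control HSC against 48.3 CPM for Ndufa1 (263 TPM) and 40.8 CPM for Ndufb3 (84.3 TPM). The low TPM of Ndufa11 therefore rests on the length assigned to it, which was not examined. Nuclear core subunits alone spanned from Ndufs1 to Ndufs7 (413 ± 30.03 TPM). The mitochondrial members, which come from shared precursors, ranged down to mt-Nd3 at 209.5 ± 41.8 TPM.

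**Figure D1:**
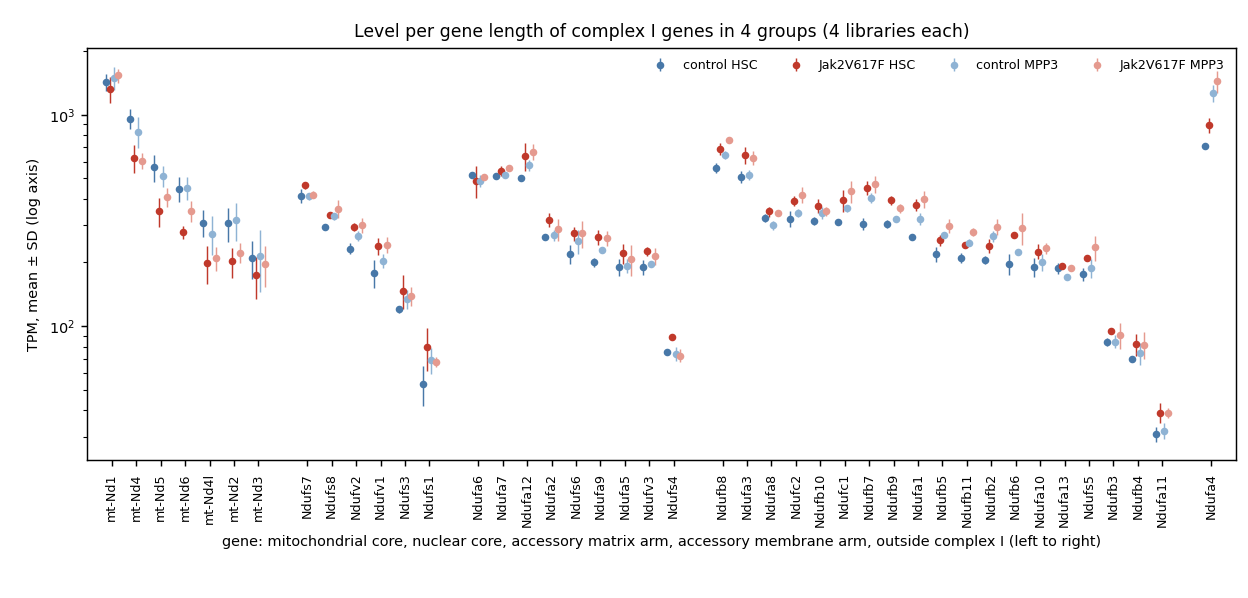
Mean TPM ± SD of 42 complex I genes (x axis, grouped by genome and role and ordered by level in control HSC) in the 4 groups of 4 libraries, on a log axis. mt-Nd1 is highest in control HSC at 1425 TPM and Ndufa11 lowest at 30.9 TPM, and at Ndufa4 on the far right the MPP3 groups lie above the HSC groups. The low TPM of Ndufa11 rests on the length assigned to it, which was not examined.

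Summed over members, the nuclear genome's RNA was higher and the mitochondrial genome's lower in Jak2V617F HSC than in control HSC. The nuclear sum, Ndufa4 included, was 4542, 4341, 4416 and 4163 CPM in control HSC of batches 1 to 4 and 5044, 5333, 5502 and 5265 CPM in Jak2V617F HSC. All mutant libraries lay above all controls, with means of 4366 ± 159 and 5286 ± 190 CPM (SD, n = 4), and the difference was 0.28 on the log2 scale. The mitochondrial sum was 2378, 2127, 1900 and 1693 CPM in control HSC and 1523, 1727, 1463 and 1161 CPM in Jak2V617F HSC. It was lower in the mutant library of every batch, by 0.30 to 0.64 on the log2 scale, although the groups overlapped (2025 ± 295 against 1468 ± 234 CPM). Without Jak2V617F HSC replicates 1 and 4 the differences were 0.31 for the nuclear and -0.34 for the mitochondrial sum. Batch 4 gave the lowest mitochondrial sum in each of the 4 groups.

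The log2 ratio of the mitochondrial to the nuclear sum, compared only between groups, was -1.12 ± 0.17 in control HSC and -1.86 ± 0.24 in Jak2V617F HSC. The groups did not overlap, and the difference of -0.74 ranged from -0.88 to -0.60 over the 4 batches. Without Jak2V617F HSC replicates 1 and 4 it was -0.65. In MPP3 the ratio was -1.22 ± 0.22 in controls and -1.63 ± 0.14 in mutants. These groups were separated narrowly, with the lowest control at -1.475 and the highest mutant at -1.496. Both sums overlapped in MPP3. Control and mutant ranges were 4610 to 5121 and 5090 to 6057 CPM for the nuclear sum, higher in 4 of 4 batches. For the mitochondrial sum they were 1659 to 2505 and 1669 to 1969 CPM, lower in 3 of 4 batches. The difference in the MPP3 ratio was -0.41 (-0.57 to -0.16 within batches). The mutant difference was 0.33 less negative in MPP3 than in HSC, and had that direction in 4 of 4 batches (0.04 to 0.54), and was 0.24 less negative without Jak2V617F HSC replicates 1 and 4. Without mt-Nd1, the mitochondrial sum was 1369 ± 217 CPM in control HSC and 869 ± 155 CPM in Jak2V617F HSC, and these groups did not overlap. The mutant mean was 977 CPM without replicates 1 and 4. No p is given for these sums. In bulk RNA, fewer cells of a type and less RNA per cell cannot be told apart, and CPM are shares of a library, not amounts per cell.

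**Figure D2:**
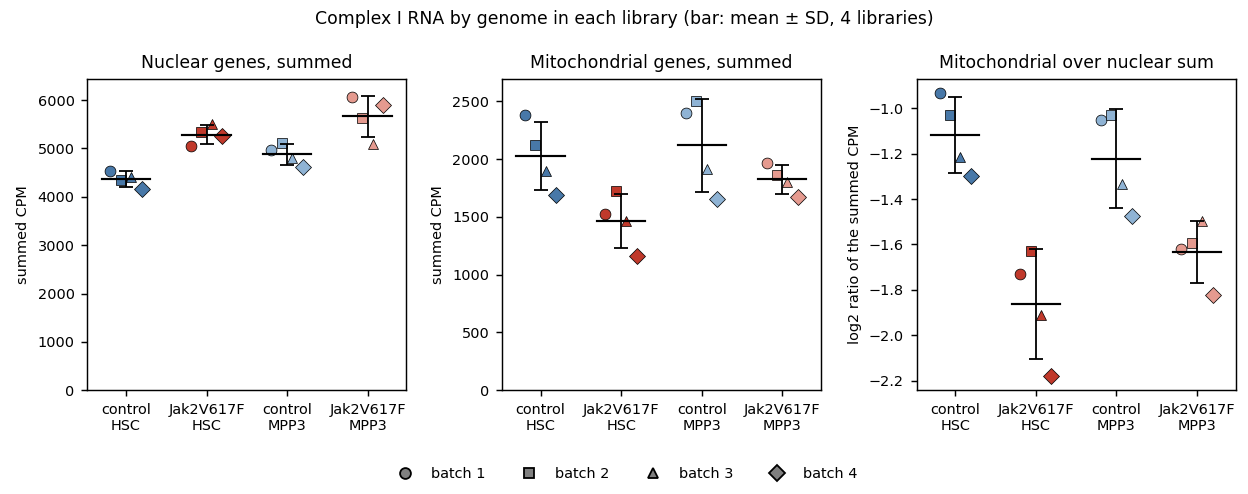
Summed CPM of the 37 nuclear members (left), of the 7 mitochondrial members (middle) and the log2 ratio of the 2 sums (right) in each library, with batch as marker and bars at the mean ± SD of 4. Nuclear sums of 5044 to 5502 CPM in Jak2V617F HSC lie above the control range of 4163 to 4542 CPM, and the ratio is lower in the mutant groups of both cell types.

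The question of the main comparison was which transcripts differ with Jak2V617F in stem cells. In HSC, 10 of 36 tested nuclear members rose and 0 fell, while 3 of 7 mitochondrial members fell and 0 rose (edgeR, adjusted p under 0.05 over 14179 genes). Over all genes tested, 4.56% rose and 2.74% fell. At an unadjusted p under 0.05, 24 nuclear members were higher and 0 lower, and 5 mitochondrial members lower and 0 higher, against 11.1% higher and 10.6% lower of all genes. The estimate was positive for 35 of 36 nuclear members, with a median log2 fold change of 0.29 against -0.06 over all genes, and negative for 7 of 7 mitochondrial members, with a median of -0.64. Mutant and control libraries did not overlap for 18 nuclear members, all higher, and 4 mitochondrial members, all lower, against 7.26% and 7.6% of all genes. DESeq2 called 17 nuclear members higher and 0 lower and 5 mitochondrial members lower and 0 higher, and limma-voom called 10, 0, 3 and 0 in the same order. With the batch as a block, edgeR called 15 nuclear members higher and 5 mitochondrial members lower. Calls over all genes moved too, from 646 higher and 389 lower in the edgeR test to 1002 and 672 with DESeq2, 656 and 603 with limma-voom and 818 and 576 with the block.

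The nuclear core passed the test in 4 of 7 members. Ndufv1, which binds NADH and the flavin that takes its electrons, stood at 198, 212, 223 and 252 CPM in control HSC and at 290, 286, 290 and 310 CPM in Jak2V617F HSC. Every mutant library lay above every control. The rise was 0.41 ± 0.09 on the log2 scale (SE; edgeR adjusted p = 0.00917). Ndufv2, its iron-sulfur partner, went from 170, 153, 141 and 149 CPM to 195, 205, 193 and 189 CPM, also without overlap (0.35 ± 0.09, edgeR adjusted p = 0.0236).

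Ndufs1 had the largest estimate of the nuclear members, 0.59 ± 0.15 (edgeR adjusted p = 0.0223), but its groups overlapped. Control HSC held 89.8, 72.2, 87.0 and 115 CPM and Jak2V617F HSC 155, 144, 99.7 and 150 CPM, the third mutant library being within the control range. The 3 core members Ndufs3, Ndufs7 and Ndufs8 did not pass. Means in control and Jak2V617F HSC were 76.5 ± 6.57 and 94.4 ± 11.7 CPM for Ndufs3, 207 ± 8.31 and 236 ± 29.6 CPM for Ndufs8, which carries iron-sulfur clusters, and 209 ± 16.7 and 233.5 ± 23.7 CPM for Ndufs7, which holds the last cluster before ubiquinone. Their edgeR adjusted p values were 0.107, 0.289 and 0.316. In libraries, Ndufs7 stood at 192, 219.7, 226.5 and 198 CPM in control HSC and 200.1, 242, 255.5 and 236 CPM in Jak2V617F HSC. Ndufs3 stood at 84.8, 78.8, 71.0 and 71.5 CPM and at 107.1, 92.9, 79.3 and 98.4 CPM, and Ndufs8 at 207.9, 199.5, 218.2 and 202.2 CPM and at 208.2, 230.6, 278 and 228.5 CPM. All 3 overlapped between the groups.

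Accessory subunits of the membrane arm rose in 5 of 19 cases, with all 19 estimates positive and 13 at an unadjusted p under 0.05. Ndufb7, on the side of the intermembrane space, had the smallest adjusted p of all members. It stood at 128, 130, 139 and 105 CPM in control HSC and 173, 196, 184 and 186 CPM in Jak2V617F HSC, with no overlap, a 1.47-fold rise (log2 0.56 ± 0.10, edgeR adjusted p = 0.00393). Ndufb9 went from 153, 136, 133 and 132 CPM to 180.0, 179.6, 184.5 and 174 CPM (0.38 ± 0.07, edgeR adjusted p = 0.00586). Ndufa1, an X-linked subunit needed to build the membrane arm, went from 50.2, 47.2, 50.3 and 45.6 CPM to 65.2, 70.4, 67.7 and 70.7 CPM (0.50 ± 0.10, edgeR adjusted p = 0.00708). In each of these genes all mutant libraries lay above all controls.

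Ndufc1 and Ndufa3, both small membrane subunits, rose with log2 fold changes of 0.38 and 0.34 and edgeR adjusted p values of 0.0329 and 0.0377. Ndufb10 narrowly missed the threshold (0.25 ± 0.07, edgeR adjusted p = 0.0502) although its groups did not overlap, at 161, 153, 164 and 157 CPM in control HSC and 176, 201.1, 187 and 191.5 CPM in Jak2V617F HSC. Ndufb11, the other X-linked member, had 127 ± 7.70 CPM in control HSC and 147 ± 11.7 CPM in Jak2V617F HSC and did not pass (edgeR adjusted p = 0.16). The lowest estimate in this arm was that of Ndufa13, also known as GRIM-19, with group means of 159 CPM in control HSC and 160.5 CPM in Jak2V617F HSC (0.01 ± 0.08). The other members of this arm, Ndufa8, Ndufa10, Ndufa11, Ndufb2, Ndufb3, Ndufb4, Ndufb5, Ndufb6, Ndufb8, Ndufc2 and Ndufs5, had estimates from 0.10 (Ndufa8) to 0.43 (Ndufb6) and did not pass. Among them, Ndufa11 and Ndufa10 missed the threshold narrowly (edgeR adjusted p of 0.0515 and 0.0568).

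In the matrix arm 1 of 9 accessory subunits rose and 5 were higher at an unadjusted p under 0.05. That was Ndufa9, which lies at the junction of the arms. It stood at 222, 192, 204 and 187 CPM in control HSC and 268, 237, 278 and 274 CPM in Jak2V617F HSC, without overlap (0.39 ± 0.09, edgeR adjusted p = 0.013). Ndufs4, loss of which in mice gives a model of Leigh syndrome, stood at 75.8, 78.0, 72.2 and 69.9 CPM and at 85.3, 86.2, 92.5 and 83.3 CPM, without overlap, and did not pass (edgeR adjusted p = 0.202). Ndufa2, Ndufa5, Ndufa7, Ndufa12, Ndufs6 and Ndufv3 gave estimates from 0.09 (Ndufa7) to 0.33 (Ndufa12), none of which passed. Ndufa12 narrowly missed the threshold (edgeR adjusted p = 0.0517). Ndufa6 was the sole nuclear member with a negative estimate (-0.09 ± 0.13), and its mutant libraries were spread from 112 to 186 CPM around controls of 133 to 157 CPM. Ndufa4, outside complex I, was at 171 ± 13.3 and 212 ± 13.6 CPM and did not pass either (edgeR adjusted p = 0.111).

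**Figure D3:**
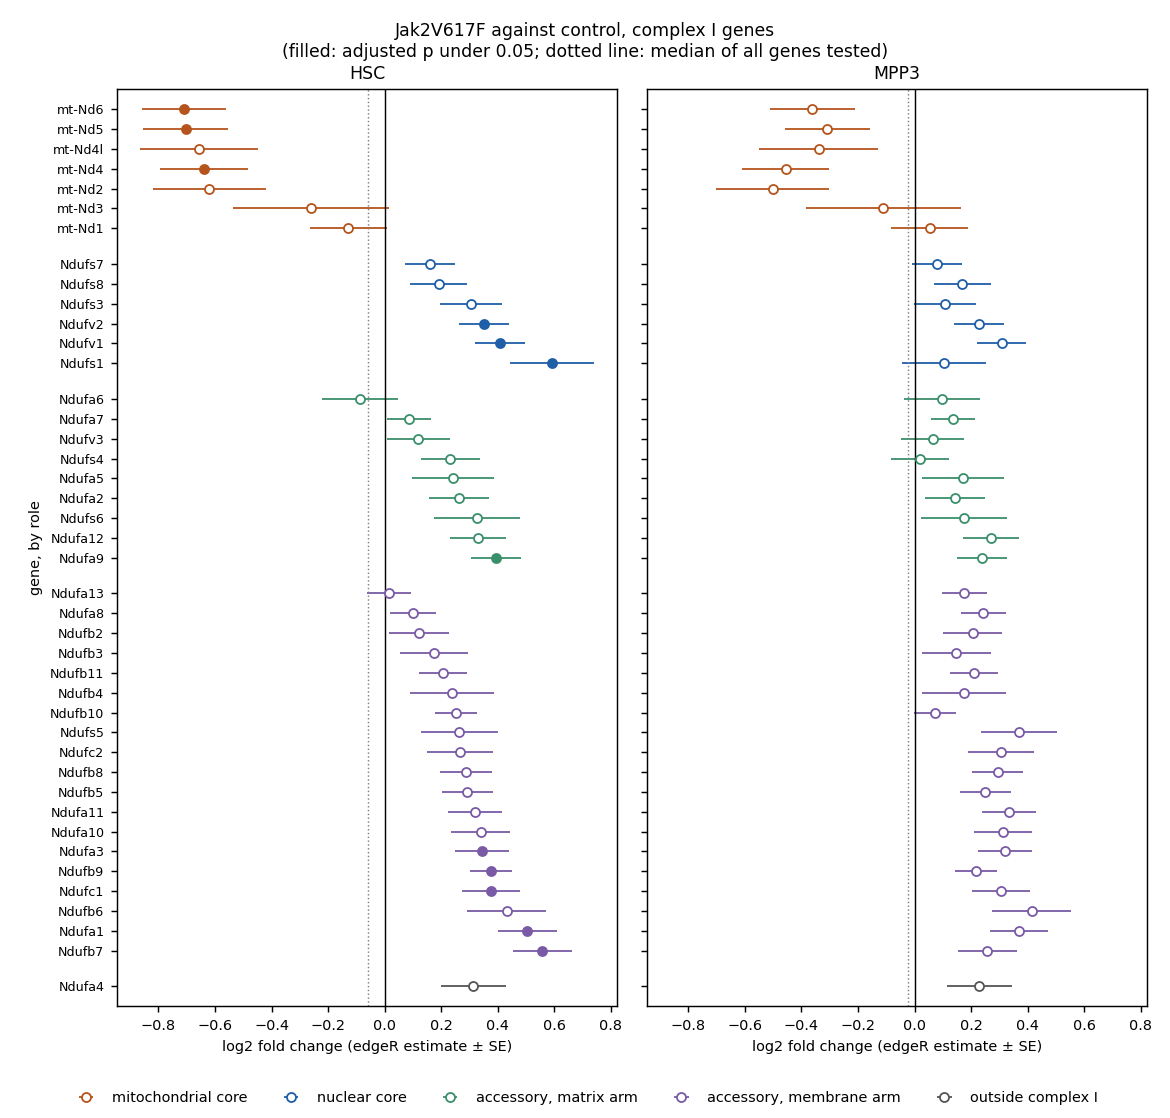
Log2 fold change ± SE (edgeR) of Jak2V617F against control for 42 complex I genes in HSC (left) and MPP3 (right), grouped by role and ordered by the HSC estimate, with filled points at adjusted p under 0.05. In HSC 9 of the nuclear points drawn to the right and 3 mitochondrial points to the left are filled, and in MPP3 no point is filled.

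Among the mitochondrial members, mt-Nd4, mt-Nd5 and mt-Nd6 fell, and mt-Nd1 had the estimate nearest 0. mt-Nd6, the sole member encoded on the minus strand, stood at 83.8, 70.8, 57.2 and 59.7 CPM in control HSC and at 46.1, 44.4, 40.2 and 35.2 CPM in Jak2V617F HSC. Its log2 fold change was -0.71 ± 0.15, without overlap (edgeR adjusted p = 0.00815). With strand not stated, its reads may include RNA of the opposite strand (above). mt-Nd5, one of the proton-pumping subunits, went from 677, 535, 496 and 442 CPM to 311, 400, 350 and 260 CPM, all mutants under all controls. Its log2 fold change was -0.70 ± 0.15 (edgeR adjusted p = 0.00898). mt-Nd4, another proton-pumping subunit, went from 636, 615, 558 and 479 CPM to 368, 432, 399 and 271 CPM (log2 fold change -0.64 ± 0.15, edgeR adjusted p = 0.0181). Again the groups did not overlap.

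The remaining mitochondrial members did not pass. mt-Nd4l, which overlaps mt-Nd4, stood at 37.9, 33.8, 32.5 and 23.5 CPM in control HSC and 20.1, 25.5, 19.0 and 16.3 CPM in Jak2V617F HSC (-0.66 ± 0.21, edgeR adjusted p = 0.0678). mt-Nd2, the remaining pumping subunit, stood at 164, 147, 109.6 and 100 CPM and at 95.1, 99.3, 85.1 and 59.6 CPM, without overlap (-0.62 ± 0.20, edgeR adjusted p = 0.0697). With the batch as a block both passed, with 5 mitochondrial members lower in all. mt-Nd3 stood at 38.3, 28.3, 27.4 and 23.3 CPM in control HSC and at 18.5, 29.5, 31.4 and 18.45 CPM in Jak2V617F HSC, was lower in 2 of 4 batches and gave -0.26 ± 0.28 (edgeR adjusted p = 0.6667). Its copy Gm28438 had means of 13.4 CPM in control HSC and 7.19 CPM in Jak2V617F HSC, per plain library total.

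mt-Nd1 stood at 741, 698, 619 and 565 CPM in control HSC and 664, 696, 538 and 500 CPM in Jak2V617F HSC. Its estimate was -0.13 ± 0.14 (edgeR adjusted p = 0.668), and the mutant library was lower in every batch, by at most 0.20. Relative to the sum of the other 6 mitochondrial members, mt-Nd1 was higher in Jak2V617F HSC by 0.53 on the log2 scale and in Jak2V617F MPP3 by 0.43, without overlap between groups in either cell type and in 4 of 4 batches in each. The HSC difference was 0.38 without Jak2V617F HSC replicates 1 and 4. A ratio of this kind shows unequal change within the mitochondrial RNA. It has no p, and shows neither side to be unchanged.

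**Figure D4:**
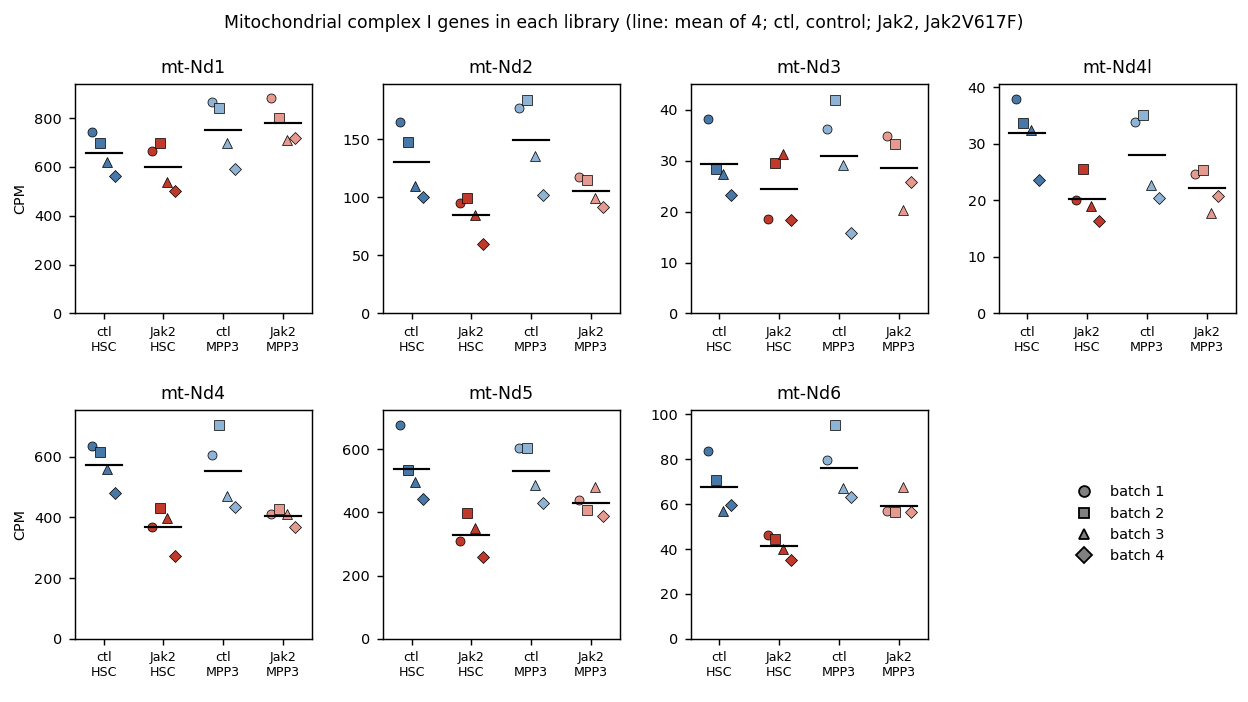
CPM of each of the 7 mitochondrial complex I genes in every library of the 4 groups, batch as marker and the mean as a line. In Jak2V617F HSC mt-Nd4, mt-Nd5 and mt-Nd6 lie under all control HSC libraries, while mt-Nd1 overlaps, and batches 1 and 2 tend to lie above batches 3 and 4.

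Of the 13 calls, Ndufb7 and Ndufb9 held when Jak2V617F HSC replicates 1 and 4 were both left out, with no mitochondrial member called. In that smaller comparison 36 of 36 nuclear estimates were positive (median 0.30) and 6 of 7 mitochondrial ones negative (median -0.50), and over all genes 180 were higher and 86 lower of 15000 tested. With single libraries left out, the nuclear count was 5 without control HSC replicate 2, 6 without control HSC replicate 4 and 6 without Jak2V617F HSC replicate 1, and the mitochondrial count ranged from 2 to 4. Over all genes these 3 settings called 424, 460 and 422 higher. mt-Nd4 was lost without control HSC replicate 1 or 2 or Jak2V617F HSC replicate 4. Ndufa1, Ndufa9, Ndufv1, mt-Nd5 and mt-Nd6 joined Ndufb7 and Ndufb9 in passing with every single library left out. Another 10 members, not called in the main test, were called in at least 1 of 18 alternatives, Ndufa11 in 8 and Ndufa12 in 7.

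Marker genes moved in the same comparison. Of 8 MPP3 markers 1 rose and 1 fell, with sums of 1815 to 2215 CPM in control HSC and 1434 to 1777 CPM in Jak2V617F HSC. Of 9 HSC markers 4 fell in Jak2V617F HSC, and their sum was 1985 to 2271 CPM in control HSC and 1362 to 1635 CPM in Jak2V617F HSC. Of 7 megakaryocyte markers 2 rose and 1 fell (sums of 2346 to 2612 and 1767 to 2232 CPM), and of 6 tested lymphoid markers 1 rose and 1 fell (121 to 162 and 189 to 234 CPM for 8 genes, with Cd3e at 0 in both groups and Cd3d at 0 in control HSC). Sums of granulocyte markers (21.7 to 69.6 and 2.04 to 47.1 CPM) and erythroid markers (43.6 to 379.4 and 88.9 to 273 CPM) overlapped between the groups, as did those of stromal and endothelial markers (87.7 to 104.8 and 64.6 to 92.3 CPM), and none of these passed the test. The part of these markers in the complex I result was not tested.

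In MPP3 the same contrast called 0 nuclear and 0 mitochondrial members, where 0.0141% of all genes rose and 0.0494% fell. All 36 nuclear estimates were nevertheless positive, with a median of 0.21 against -0.02 over all genes, and 6 of 7 mitochondrial ones negative, with a median of -0.34. At an unadjusted p under 0.05, 19 nuclear members were higher and 0 lower and 3 mitochondrial members lower and 0 higher, against 6.31% higher and 7.52% lower of all genes. Groups did not overlap for 11 nuclear members, all higher, and 1 mitochondrial member, mt-Nd4, lower, against 3.65% and 3.48% of all genes. DESeq2 called 3 nuclear members higher (Ndufa1, Ndufa11 and Ndufv1) and 0 mitochondrial members, and limma-voom called 0 of either. Over all 14179 genes DESeq2 called 163 higher and 225 lower, against 2 and 7 with edgeR and 0 and 6 with limma-voom.

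Ndufa1 had the smallest p, with 64.3, 59.2, 60.1 and 52.8 CPM in control MPP3 and 84.9, 81.4, 63.2 and 75.6 CPM in Jak2V617F MPP3 (0.37 ± 0.10, edgeR adjusted p = 0.144). The third mutant library lay within the control range. Ndufv1 stood at 244, 239, 261 and 244 CPM and at 269.6, 332, 298 and 325 CPM, without overlap (0.31 ± 0.09, edgeR adjusted p = 0.147). Ndufa11, a membrane-arm subunit, stood at 67.0, 73.3, 77.2 and 65.8 CPM and at 95.3, 90.9, 82.6 and 88.6 CPM (0.33 ± 0.10, edgeR adjusted p = 0.147).

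Ndufa3 and Ndufb8 also separated the groups. Ndufa3 stood at 80.3, 87.6, 82.3 and 82.3 CPM in control MPP3 and 114, 109, 87.9 and 104 CPM in Jak2V617F MPP3, and Ndufb8 at 276, 305, 291 and 269 CPM and 343, 357, 335 and 363 CPM. Their edgeR adjusted p values were 0.154 and 0.164. Without Jak2V617F MPP3 replicate 3, the lowest mutant library in the nuclear sum at 5090 CPM, 3 nuclear members passed (Ndufa1, Ndufa3 and Ndufb6), where 108 of all 14515 genes tested were higher and 101 lower. Of 7 megakaryocyte markers 1 fell in Jak2V617F MPP3 (sums of 540 to 771 CPM in controls and 390 to 581 CPM in mutants), no gene of the other marker lists passed, and their part was not tested.

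The core members Ndufv2, Ndufs1, Ndufs3, Ndufs7 and Ndufs8 overlapped between the 2 MPP3 groups. Ndufv2 stood at 175, 189, 181 and 174 CPM in control MPP3 and 235, 198, 182 and 228 CPM in Jak2V617F MPP3 (0.23 ± 0.09, edgeR adjusted p = 0.258). Ndufs1 stood at 104, 108, 139 and 122 CPM and 129, 120, 128 and 132 CPM (0.10 ± 0.15). Group means of Ndufs3, Ndufs7 and Ndufs8 were 87.1 ± 7.56, 200.9 ± 10.3 and 228 ± 16.9 CPM in controls and 93.9 ± 8.33, 212 ± 11.1 and 256 ± 29.5 CPM in mutants.

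Of the mitochondrial members, mt-Nd4 was the one without overlap in MPP3, at 605, 704, 471 and 434 CPM in controls and 412, 426, 410 and 367 CPM in mutants (-0.46 ± 0.15, edgeR adjusted p = 0.194). mt-Nd2 stood at 177, 183.5, 135 and 102 CPM and at 117, 115, 99.3 and 91.7 CPM (-0.50 ± 0.20, edgeR adjusted p = 0.267) and was called with the batch as a block, where 25 of all genes were higher and 57 lower. Both were lower in the mutant library of every batch. mt-Nd6 was at 79.6, 95.2, 67.3 and 63.1 CPM and 57.0, 56.4, 67.5 and 56.7 CPM, and mt-Nd5 at 604, 604, 488 and 430 CPM and 440, 408, 480 and 388 CPM. Their estimates were -0.36 ± 0.15 and -0.31 ± 0.15, and their groups overlapped. Control and mutant means were 28.0 ± 7.50 and 22.2 ± 3.56 CPM for mt-Nd4l and 30.8 ± 11.3 and 28.6 ± 6.80 CPM for mt-Nd3 (estimates of -0.34 ± 0.21 and -0.11 ± 0.28). mt-Nd1 stood at 867, 843, 698 and 593 CPM and 883, 801, 710 and 719 CPM, the sole positive mitochondrial estimate (0.05 ± 0.14).

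Whether the mutant effect differed between MPP3 and HSC was tested directly. No member was called, nor by DESeq2, by limma-voom or without Jak2V617F HSC replicates 1 and 4. Of all genes 0.0141% of all genes had a more positive and 0.0282% a more negative effect in MPP3, or 2 and 4 genes, against 26 and 51 with DESeq2. At an unadjusted p under 0.05 there was 1 nuclear member, Ndufs1, with a smaller effect in MPP3 by 0.49 ± 0.21 (log2 difference -0.49, edgeR adjusted p = 0.658), and 0 mitochondrial members, against 3.19% and 3.73% of all genes. The mt-Nd5 difference was 0.40 ± 0.21 (edgeR adjusted p = 0.791) and the Ndufb7 difference -0.30 ± 0.15 (edgeR adjusted p = 0.736). All 7 mitochondrial estimates were positive, from 0.12 for mt-Nd2 to 0.40 for mt-Nd5, and 26 of 36 nuclear ones negative. Without Jak2V617F HSC replicates 1 and 4 these counts were 5 of 7 and 31 of 36. Ndufb10, Ndufb9 and Ndufs4 had the next lowest p of the accessory members (-0.18, -0.16 and -0.21, edgeR adjusted p of 0.834, 0.874 and 0.887). In MPP3 they stood at 172 and 181 CPM, 145 and 169 CPM, and 76.3 and 77.3 CPM as control and mutant means. The calls in HSC are therefore not shown to be particular to HSC.

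The cell types were compared within each genotype. These comparisons share libraries with those above. They also contrast the markers that define the cells, since 8 of 9 HSC markers were lower and 7 of 8 MPP3 markers higher in control MPP3, and 6 of 7 megakaryocyte markers lower (540 to 771 CPM in sum, against 2346 to 2612 CPM in HSC). Of 6 tested lymphoid markers 3 were higher (428.5 to 608.6 CPM in sum, against 121 to 162 CPM), and of 5 tested stromal and endothelial markers 1 was higher (86.9 to 190 CPM, against 87.7 to 104.8 CPM). The part of these markers was not tested. In control mice 3 of 36 nuclear members were higher in MPP3 than in HSC and 0 lower, and 0 of 7 mitochondrial members passed, against 6.67% higher and 6.91% lower of all genes. At an unadjusted p under 0.05, 11 nuclear members were higher and 1 lower and 0 mitochondrial members differed, against 13.2% of all genes in each direction. DESeq2 called 5 nuclear members higher and 0 lower and 0 mitochondrial members, and limma-voom 3, 0 and 0. Over all genes DESeq2 called 1203 higher and 1235 lower and limma-voom 972 and 1212, against 946 and 980 with edgeR. The nuclear median was 0.15 and the mitochondrial 0.07.

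Ndufa4, the complex IV subunit, differed most. It stood at 184, 178, 168 and 153 CPM in control HSC and at 362, 321, 293 and 267 CPM in control MPP3, far apart in every batch. This is a 1.82-fold difference (log2 0.87 ± 0.12, edgeR adjusted p = 7.17e-05). In Jak2V617F mice it went from 205, 232, 204 and 207 CPM in HSC to 427, 349, 295 and 386 CPM in MPP3 (1.72-fold, log2 0.78 ± 0.11, edgeR adjusted p = 0.000231). These 2 calls held under every alternative run.

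Within complex I, the control mice had Ndufb7 and Ndufb5 called. Ndufb7 was higher in MPP3 (155, 179, 158 and 153 CPM) than in control HSC (above) by 0.36 ± 0.10 (edgeR adjusted p = 0.0284), and Ndufb5, a membrane-arm subunit whose gene shares bases with Mrpl47, by 0.31 ± 0.09 (edgeR adjusted p = 0.0286). The Ndufb5 values were 102.5, 93.0, 88.7 and 97.1 CPM in HSC and 122.5, 127, 111 and 113 CPM in MPP3, without overlap. Both calls were lost without control MPP3 replicate 1 or 2 or control HSC replicate 2, each of which left Ndufa4 as the 1 nuclear member called, with 756, 709 and 653 of all genes higher in the same order. Ndufa1 and Ndufb11, at 0.29 ± 0.10 and 0.23 ± 0.08, did not pass although their groups did not overlap. Ndufb11 stood at 131, 136, 122 and 119.8 CPM in HSC and 149.5, 160.4, 152 and 137 CPM in MPP3. Ndufa13 was the nuclear member with the lowest estimate (-0.18 ± 0.08, edgeR adjusted p = 0.152). The nuclear sum was 0.16 higher in control MPP3 on the log2 scale, without overlap, and without Ndufa4 0.12 higher, with overlap.

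The mitochondrial members of control mice gave 0.19 ± 0.14 for mt-Nd1, 0.20 ± 0.20 for mt-Nd2, 0.07 ± 0.28 for mt-Nd3 and -0.05 ± 0.15 for mt-Nd4. For mt-Nd4l, mt-Nd5 and mt-Nd6 the estimates were -0.19 ± 0.21, -0.02 ± 0.15 and 0.17 ± 0.15. Their edgeR adjusted p values lay between 0.414 and 0.964, and the 2 groups overlapped for each of the 7 genes.

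In Jak2V617F mice 2 nuclear members and 1 mitochondrial member were higher in MPP3 and 0 of either lower, against 3.69% higher and 4.68% lower of all genes. At an unadjusted p under 0.05, 4 nuclear and 3 mitochondrial members were higher and 0 lower, against 9.48% and 10.9% of all genes. Between these groups 5 of 9 HSC markers were lower, 7 of 8 MPP3 markers higher, 7 of 7 megakaryocyte markers lower, 3 of 6 lymphoid markers higher, and 1 of 5 stromal and endothelial markers higher and 1 lower. The part of these markers was not tested. DESeq2 and limma-voom each called 2 nuclear members and 1 mitochondrial member higher and 0 lower, with 690 and 523 of all genes higher. Beside Ndufa4 these were Ndufb2 and mt-Nd6. Ndufb2, a small membrane-arm subunit, stood at 53.0, 63.0, 67.9 and 59.9 CPM in HSC and 83.8, 80.2, 72.0 and 78.3 CPM in MPP3 (0.37 ± 0.11, edgeR adjusted p = 0.0381), without overlap. mt-Nd6 was higher in MPP3 (values above) by 0.52 ± 0.15 (edgeR adjusted p = 0.0386). The same limit on strand holds for its reads. Ndufb5, at 125, 122, 112 and 108 CPM in HSC and 158, 126.5, 136 and 143 CPM in MPP3, did not pass (0.27 ± 0.09, edgeR adjusted p = 0.0763) but was called with the batch as a block. Ndufb11, at 135.5, 142, 163 and 147 CPM and at 185, 166, 162 and 180.5 CPM, and Ndufb8, at 257, 314, 349 and 318.5 CPM and at 343, 357, 335 and 363 CPM, overlapped and did not pass (edgeR adjusted p of 0.0974 and 0.308).

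The Ndufb2 call was lost without any of 6 single libraries (Jak2V617F MPP3 replicates 1, 2 and 4 and Jak2V617F HSC replicates 1, 2 and 4), leaving Ndufa4 as the 1 nuclear member called. The mt-Nd6 call was lost without any single library other than Jak2V617F HSC replicate 1. With Jak2V617F HSC replicates 1 and 4 both left out, Ndufa4 was the 1 member called, and 324 of all genes were higher. With the batch as a block 4 mitochondrial members were called (mt-Nd1, mt-Nd2, mt-Nd5 and mt-Nd6), and 622 of all genes were higher, against 523 without the block. Estimates for all 7 mitochondrial members were positive, from 0.13 for mt-Nd4l to 0.52 for mt-Nd6, with 0.38 ± 0.14 for mt-Nd1 (edgeR adjusted p = 0.109). Without Jak2V617F HSC replicates 1 and 4, 4 of 7 were positive (median 0.20).

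**Figure D5:**
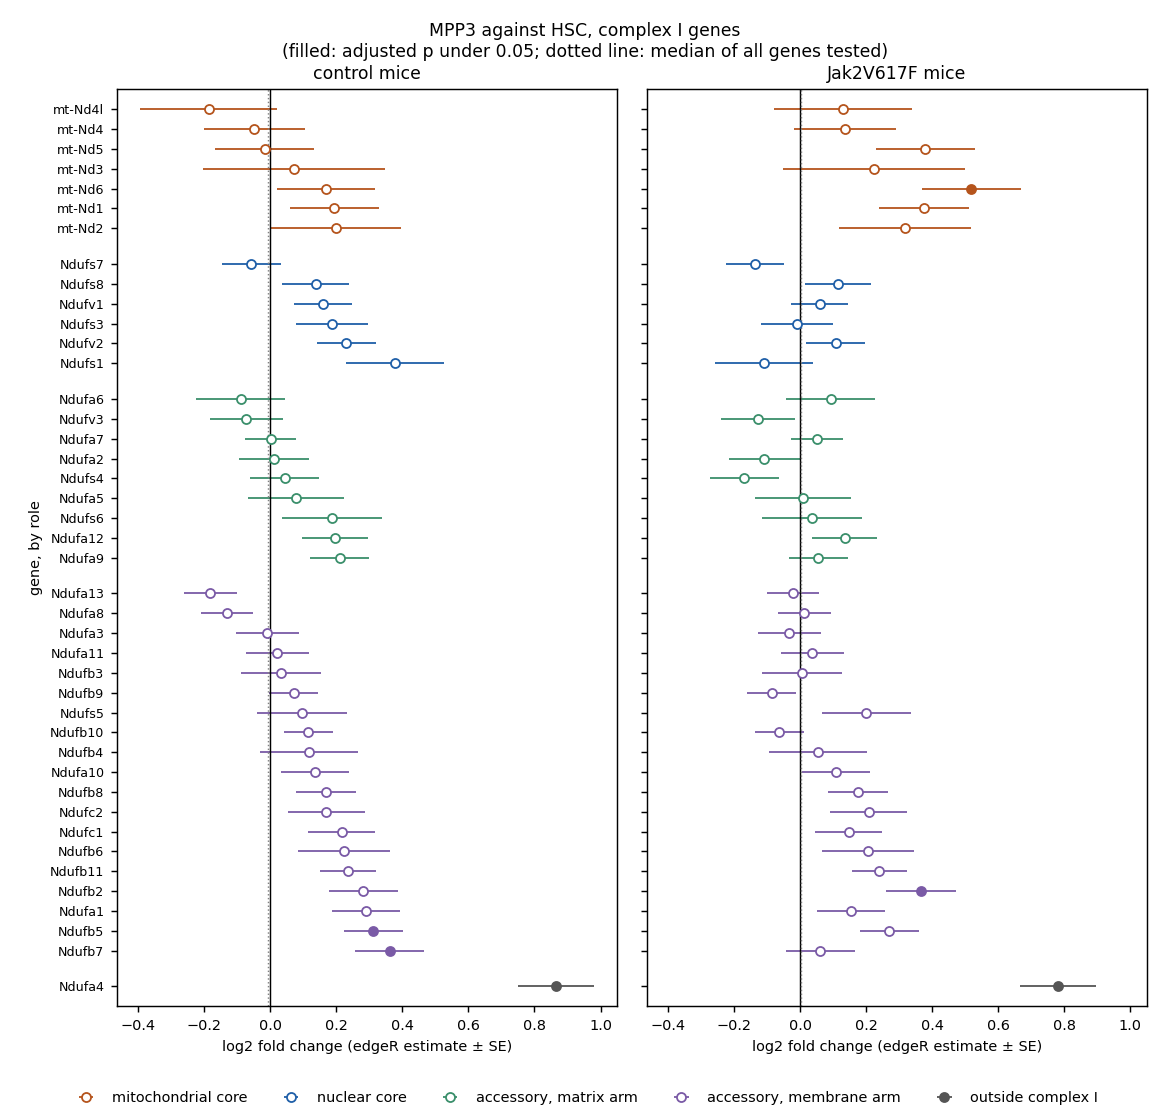
Log2 fold change ± SE (edgeR) of MPP3 against HSC for 42 complex I genes in control mice (left) and Jak2V617F mice (right), grouped by role and ordered by the control estimate, with filled points at adjusted p under 0.05. Ndufa4, the complex IV subunit at the bottom, lies farthest right in both panels at 0.87 and 0.78.

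Other genes of the pathway were read from lists. The mitochondrial mRNAs of other complexes also fell in Jak2V617F HSC, 3 of 6 (mt-Co1 of complex IV at -0.71 ± 0.16, mt-Cytb of complex III at -0.51 ± 0.13 and mt-Atp6 of ATP synthase at -0.47 ± 0.12, edgeR adjusted p of 0.0118, 0.0206 and 0.0262), with a median of -0.53. Without Jak2V617F HSC replicates 1 and 4 none of them passed (edgeR adjusted p of 0.178, 0.218 and 0.236). mt-Co1 stood at 3563, 3332, 2882 and 2403 CPM in control HSC and 1768, 2075, 2217 and 1409 CPM in Jak2V617F HSC. All mitochondrial genes in the tables took 1.78 ± 0.27% of counts in control HSC and 1.204 ± 0.21% in Jak2V617F HSC, without overlap (mean 1.36% without replicates 1 and 4), and 1.61 ± 0.31% and 1.36 ± 0.09% in MPP3. The log2 ratio of the complex I members to these 6 mRNAs differed by 0.09 between the HSC groups, which overlapped. Mitochondrial ribosomal RNA was not analysed here.

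Ndufab1, the mitochondrial acyl carrier protein that is also a subunit of complex I but falls outside the naming rule, stood at 146, 116, 137 and 117 CPM in control HSC and 162, 199, 161 and 159 CPM in Jak2V617F HSC. Its groups did not overlap and it narrowly missed the test (0.40 ± 0.12, edgeR adjusted p = 0.0565, and 0.141 without Jak2V617F HSC replicates 1 and 4). Of 18 complex I assembly factors 0 passed in any comparison, and in Jak2V617F HSC 2 were higher and 1 lower at an unadjusted p under 0.05, with a median of 0.12. These are 11.1% and 5.56% of the list, against 11.1% higher and 10.6% lower of all genes.

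Of 29 tested genes of mitochondrial transcription and RNA processing 1 rose in Jak2V617F HSC, Tbrg4 (0.52 ± 0.11, edgeR adjusted p = 0.0109), which binds mitochondrial RNA. It stood at 81.8, 81.7, 84.6 and 91.6 CPM in control HSC and 112, 131, 104 and 140 CPM in Jak2V617F HSC. The list's 1 call stands beside 4.56% of all genes that rose. Those that transcribe or package mitochondrial DNA did not pass, Polrmt, the polymerase, at -0.19 ± 0.15, and Tfam at 0.25 ± 0.14. Lrpprc, which stabilizes mitochondrial mRNA, gave 0.30 ± 0.25. Of 10 replication genes 1 fell, Tk2, the mitochondrial thymidine kinase, from 36.2, 42.2, 39.0 and 47.1 CPM to 25.5, 18.2, 28.3 and 18.6 CPM (-0.86 ± 0.23, edgeR adjusted p = 0.0323), where 2.74% of all genes fell. Without Jak2V617F HSC replicates 1 and 4 the edgeR adjusted p was 0.105 for Tbrg4 and 0.216 for Tk2, so neither passed. Of 13 regulators of respiration 0 passed in Jak2V617F HSC (0 higher and 2 lower at an unadjusted p under 0.05, against 11.1% and 10.6% of all genes), among them Nrf1 (0.08 ± 0.12) and Gabpa (0.08 ± 0.12). None of these lists had a call in Jak2V617F MPP3.

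Between the cell types of control mice, Hsd17b10, a subunit of mitochondrial RNase P, was lower in MPP3 (-0.58 ± 0.10, edgeR adjusted p = 0.000539), as was Twnk, the mitochondrial helicase (-0.47 ± 0.14, edgeR adjusted p = 0.0377). Tbrg4 (0.48 ± 0.11, edgeR adjusted p = 0.00961) and Gabpb1, the partner of Gabpa (0.54 ± 0.15, edgeR adjusted p = 0.0216), were higher. In Jak2V617F mice Hsd17b10 was lower in MPP3 (-0.34 ± 0.10, edgeR adjusted p = 0.0355) and the other 3 were not called. Of the lists of transcription, replication and regulators, with 29, 10 and 13 genes, these were the calls in control mice, where 6.67% of all genes were higher and 6.91% lower.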

How the data were processed

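RNA of 16 libraries (4 groups of 4) was read as paired ends after SMARTer Ultra Low cDNA synthesis, per the labels' protocols. Per the submitters' processing notes, cutadapt 4.0, FastQC, HISAT2 and Salmon were used with GRCm38 (mm10), with no role or setting stated in the sources used here. The value tested was the estimated read count per gene (an expected count from Salmon, not normalized) that the authors deposited, rounded to whole numbers. The authors' tables also hold TPM, used only for levels between genes and 1 alternative. Per the file headers they hold effective lengths in bases, used as offsets in 1 alternative.

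The 1910 entries that name single transcripts (0.697 to 0.796% of counts) were left out of totals and tests. Symbols and coordinates came from GENCODE M21. Genes kept by filterByExpr (14179) were tested with edgeR 4.0.16 in R 4.3.3 (glmQLFit, robust, TMM, 1 coefficient per group, p-values adjusted after Benjamini and Hochberg over all tested genes), with calls at an adjusted p under 0.05. SE is the log2 fold change over the square root of F. CPM use TMM-scaled totals. Copies were found with blastn (at least 90% identity over 200 bases). The script was tested on simulated data.

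The members, gene lists, motifs and tests were chosen with earlier results of these data known. Members are named by role. A nuclear member and a marker gene stay in all fits, sums and counts, but their own values are not reported here and the member is not drawn. Values in every library are given for the core members reported and for the 4 accessory members with the smallest adjusted p per comparison, in at least 1 comparison. From other lists, up to 4 called genes per comparison were named, with Ndufab1, Nrf1, Gabpa, Tfam, Polrmt and Lrpprc whatever their p. Ndufb6, Ndufb10, Ndufa6 and Ndufa13 were singled out after their values were seen.

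The fits were repeated with the batch as a block, with DESeq2 1.42.0, with limma-voom (limma 3.58.1), with RLE size factors, with no low-count filter, with 24 mitochondrial, ribosomal RNA and haemoglobin genes out of the totals, on the compared groups alone, with effective-length offsets, with pseudogene copies added and without each library in turn. Leaving out Jak2V617F HSC replicates 1 and 4 together was chosen after seeing the data. The labels call the replicate number a batch, which is where the pairing comes from. Deviations of same-numbered libraries from their group means correlated at r from -0.03 to 0.16 over 24 pairs, 5 of them above 0.1. All 5 were pairs of HSC and MPP3 of the same genotype. Pairs of that kind ranged from 0.08 to 0.16, and the others from -0.03 to 0.098. The main tests of MPP3 against HSC do not use this link, while the block takes the number as shared by all 4 groups.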

Additional observations from a re-analysis of the deposited data

Results flagged for a closer look

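Of 184 sets of 4 libraries examined (a member, or a sum over members, in 1 group), 7 had a library far from the other 3. Chance flags about 1 in 20 such sets. In Jak2V617F MPP3 the library set apart was replicate 3 each time: Ndufb7 at 158.2 CPM against 202 to 208 CPM in the others, Ndufs6, a matrix-arm subunit, at 64.9 CPM against 93.1 to 98.3 CPM, and mt-Nd6 at 67.5 CPM against 56.4 to 57.0 CPM. That library was low in both nuclear genes and high in the mitochondrial one, and batch 3 was not set apart in these 3 genes in any other group.

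In control HSC, replicate 2 was low in Ndufa13 (152.9 CPM against 160.3 to 161.3 CPM) and replicate 4 in Ndufa7 (146.6 CPM against 152.9 to 153.1 CPM), where the other 3 libraries lay within 1 CPM of each other. Jak2V617F HSC replicate 2 was high in Ndufa4 (232.4 CPM against 204 to 207 CPM), and control MPP3 replicate 3 was low in Ndufb10 (158.2 CPM against 175 to 178 CPM).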

How the results depend on the processing

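No result changed direction while called, in any alternative. In Jak2V617F HSC the nuclear count higher (10) was 17 with DESeq2, 5 to 15 with single libraries left out and 2 with replicates 1 and 4 both left out. The mitochondrial count lower (3) was 5 with the replicate block, 5 with DESeq2, 2 to 4 with single libraries left out and 0 without both replicates. In Jak2V617F MPP3 the nuclear count (0) was 3 with DESeq2 and 0 to 3 with single libraries left out, and the mitochondrial count (0) was 1 with the replicate block. Between the cell types of control mice the nuclear count (3) was 5 with DESeq2, 5 with effective-length offsets and 1 to 4 with single libraries left out. In Jak2V617F mice the nuclear count (2) was 1 with no low-count filter, 1 with the groups compared alone, 1 to 2 with single libraries left out and 1 without replicates 1 and 4. The mitochondrial count (1) was 4 with the replicate block, 0 with no filter, with the groups compared alone, with effective-length offsets and without replicates 1 and 4, and 0 to 1 with single libraries left out. The cause of these shifts was not tested. The block changed no other count of members called by over 1.5 times, and over all genes in Jak2V617F MPP3 it moved 2 higher and 7 lower to 25 and 57 and for the difference of effects 2 and 4 to 0 and 1. The log2 ratio of the sums kept its sign under every alternative run, from -0.82 to -0.64 in HSC and from -0.50 to -0.35 in MPP3 for Jak2V617F against control. Pseudogene copies, RLE size factors, limma-voom and the changed totals moved no count of members called by over 1.5 times. Over all genes limma-voom moved the lower count in Jak2V617F HSC from 389 to 603 and the higher count in MPP3 from 2 to 0, and for the difference of effects from 2 to 1. With 4 libraries per group, leaving out 2 of them leaves a comparison of 2 against 4.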
